A study of Mus musculus with 2 samples.

Results

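The microRNA genes that mark the vessels and blood of a tissue were followed in embryonic mouse limb through 8 members: Mir126a for endothelium, Mir451a, Mir144 and Mir486 for red cells, and Mir142b, Mir223, Mir155 and Mir150 for white cells. They were chosen by name, with earlier results of these data known, as 8 of the 1973 microRNA genes in the count tables. All 8 had at least 10 reads in both libraries, Mir142b on its opposite strand only. Of all 1973 genes, 333 had as many on their own strand. The gene counted at the Mir142 locus is Mir142b, which lies on the strand opposite Mir142. Its own strand held no reads, so the reads on the opposite strand were used and are called Mir142 below.

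The study sequenced RNAs under 30 nucleotides from the 4 limbs of B6NCrl mouse embryos at embryonic day 14.5, with no treatment or genetic change given in the labels. There was 1 group of 2 biological replicates, collected on different days. The labels name 1 pup and also a pooled sex, and give both samples the same donor, so whether a sample holds 1 embryo or several is not settled by them, and the spread between the samples may be partly technical. Levels are in CPM, a gene's counts scaled to the library's sum of reads on the own strand of any microRNA gene (4608816 reads in replicate 1 and 4144385 in replicate 2), and are given as mean ± SD with n = 2. With 1 group there was no contrast between conditions and no p-value. The limb genes Mir196b (51975 ± 3475 CPM), Mir140 (57289 ± 2418 CPM) and Mir10b (10455 ± 978 CPM) were high in both libraries, while the liver gene Mir122 was at 9.90 ± 5.11 CPM. Of the 8 genes in the tables that mark liver, brain or heart, Mir208b, which slow skeletal muscle also makes, was the highest at 121 ± 23.1 CPM. The others lay below 10 CPM. Among these, the Mir124a and Mir9 genes of the brain share stretches of 22 bases with their own copies. Reads that align in several places count for no gene, so the levels of these brain genes are lower limits and do not show absence. Intervals cover counting error only, at 95%.

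A microRNA is cut from a hairpin precursor, first by Drosha in the nucleus and then, for most microRNAs, by Dicer, and guides Argonaute to messenger RNAs through its seed, bases 2 to 8. Endothelial cells make miR-126 from within the gene Egfl7, where it sustains growth factor signalling and vessel integrity. Red cell precursors make miR-144 and miR-451 from a shared transcript, and miR-451 skips Dicer and is trimmed after a cut by Argonaute 2. Blood cells of all lineages make miR-142, myeloid cells miR-223, activated lymphocytes and macrophages miR-155, and mature lymphocytes miR-150.

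The mature sequences of the members the results turn on are shown so that their seeds can be compared. They are RefSeq sequences on GRCm38.p6, 5′ to 3′, with the seed in capitals.
miR-126a-3p: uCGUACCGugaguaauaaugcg
miR-451a: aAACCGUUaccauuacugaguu
miR-144-3p: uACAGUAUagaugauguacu
miR-142a-3p: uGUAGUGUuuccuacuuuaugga
miR-142a-5p: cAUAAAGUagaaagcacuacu
miR-142b: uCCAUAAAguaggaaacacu
miR-223-3p: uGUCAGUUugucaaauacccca
miR-155-5p: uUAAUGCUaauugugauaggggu

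The RefSeq table used here held a mature sequence for 7 of the 8 members, all but Mir486. The 12 mature sequences found for these genes and for Mir142 were 20 to 23 bases long and had 12 distinct seeds. None of the 12 seeds occurred in another mature sequence of the RefSeq table, which was also true of 1211 of its 1679 mature microRNAs (72.1%). Arms outside these 12, among them miR-126a-5p and miR-150-5p, and Mir486 were not compared. Reads were counted per hairpin, so the arms of a hairpin could not be told apart, and levels were not divided by length because the products are of like length.

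The precursors of the pair of red cell genes are shown for the place of the mature RNA, in capitals, within the hairpin. They lie on the plus strand of GRCm38 at chr11:78073005-78073070 for Mir144 and chr11:78073170-78073241 for Mir451a.
Mir144 precursor: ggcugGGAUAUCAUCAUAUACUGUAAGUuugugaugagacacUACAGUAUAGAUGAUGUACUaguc
Mir451a precursor: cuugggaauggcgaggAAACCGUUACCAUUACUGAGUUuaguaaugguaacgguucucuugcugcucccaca

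A predicted fold placed the terminal loop of the Mir451a precursor at bases 35 to 38, and all 4 of these bases lay inside the mature sequence, which runs from base 17 to base 38. In the Mir144 precursor the loop fell at bases 31 to 36, between the 2 mature arms, which end at base 28 and start at base 43. Of the 7 precursors with a hairpin in that table (those of 6 members and Mir142), the one with a mature sequence reaching into the loop was Mir451a.

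The endothelial microRNA was the most abundant of the 8. Mir126a held 87398 reads in replicate 1 and 79853 in replicate 2, or 18963 and 19268 CPM. Its mean of 19115 ± 215 CPM made up 1.91% of the counted own-strand microRNA reads. Mir126a ranked 15th among the 333 microRNA genes with at least 10 reads in both libraries. The gene (ENSMUSG00000065540.1) lies on the plus strand at chr2:26591357-26591429 and overlaps an exon of an annotated Egfl7 transcript. Mir126a alone gave 91.6% of the summed level of the 8 members. A read that aligns in several places was counted for no gene, so these shares and the ranks here and below hold for singly aligned reads only.

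Set against genes of other limb tissues, Mir126a lay between the cartilage and muscle markers. It was 0.341 times Mir140, the cartilage microRNA, in replicate 1 and 0.327 times in replicate 2, below 1 in both libraries. It was 3.14 and 4.37 times Mir206, a microRNA of skeletal muscle, above 1 in both. Reads were compared here, and how evenly different microRNAs yield reads was not measured. In whole tissue, fewer cells of a type and less of the RNA per cell cannot be told apart.

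**Figure D1:**
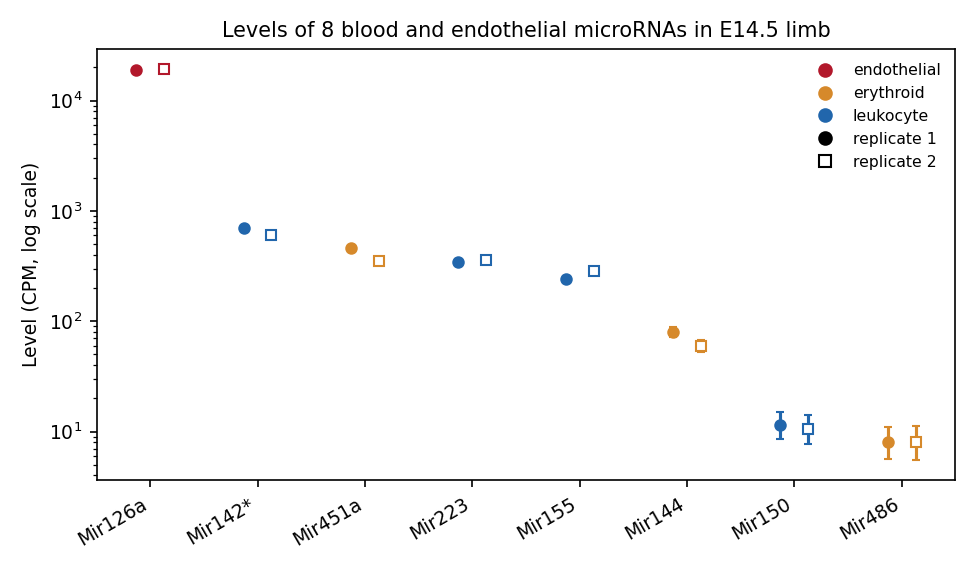
Level of each member (vertical axis, CPM on a log scale) in replicate 1 (filled circles) and replicate 2 (open squares), coloured by cell type; bars are exact Poisson intervals at 95%, and Mir142* marks reads on the strand opposite Mir142b. Mir126a sits near 19115 CPM, the next member Mir142 near 651 CPM, and Mir150 and Mir486 lowest, near 11.1 CPM and from 7.96 to 8.03 CPM, with the widest bars.

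The red cell microRNAs were led by Mir451a and summed to 547 CPM in replicate 1 and 417 CPM in replicate 2, a mean of 482 ± 91.9 CPM. Mir451a (ENSMUSG00000070065.1) held 2117 and 1450 reads, or 459 and 350 CPM. It gave 83.9% of the red cell sum and ranked 133rd among the detected genes. Mir144 (ENSMUSG00000065401.1), its neighbour, held 368 and 246 reads, or 79.8 and 59.4 CPM. Both genes were higher in replicate 1.

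Mir144 and Mir451a lie on the same strand with 99 bases between them and within no annotated host transcript. Mir451a exceeded Mir144 by 5.75 times in replicate 1 (5.15 to 6.44) and by 5.89 times in replicate 2 (5.15 to 6.77). The level of the pair thus differed between the libraries while the ratio within it did not differ beyond counting error. Mir451b is annotated opposite Mir451a over the same 72 bases. No read lay on that strand among 2117 and 1450 reads. With 3 reads taken as the limit that 0 counts allow, the share could be up to 0.142% in replicate 1 and 0.207% in replicate 2.

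Mir486, which red cells and striated muscle make from within the ankyrin gene Ank1, was the lowest of the 8 members. The gene (ENSMUSG00000070084.3) lies on the plus strand at chr8:23142555-23142682 inside an intron of Ank1. It held 37 and 33 reads, or 8.03 and 7.96 CPM, and gave 1.66% of the red cell sum. These counts are a lower limit: the precursor shares 2 of its 107 stretches of 22 bases with Mir3107, annotated opposite it over 90 bases, and the tables give a read that aligns in several places to no gene. No other member shared such a stretch with any annotated microRNA gene. The order of Mir486 against the other members, the red cell sum and the ratios that use this sum therefore hold for singly aligned reads only.

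The white cell microRNAs summed to 1300.1 CPM in replicate 1 and 1256 CPM in replicate 2, a mean of 1278 ± 31.1 CPM, and Mir142 was the highest. Mir142 held 3234 and 2490 reads, or 702 and 601 CPM, with a mean of 651 ± 71.3 CPM. It gave 51.0% of the white cell sum, a part not specific to white cells because blood cells of all lineages make miR-142. Mir142 was the member next below Mir126a, which exceeded it by 27.0 times in replicate 1 and 32.1 times in replicate 2. Mir142 (chr11:87756864-87756927, plus strand) lies in an intron of the noncoding gene Mir142hg and wholly inside the 115 bases of Mir142b (ENSMUSG00000065420.2), at chr11:87756841-87756955 on the minus strand.

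Strand decides which gene of that pair is seen, because all 20 bases of miR-142b are the reverse complement of a stretch of miR-142a-3p. None of the 3234 reads of replicate 1 and none of the 2490 of replicate 2 lay on the strand of Mir142b. With the same limit of 3 reads, these counts of 0 allow a share of up to 0.0928% and 0.120%. Which column of the tables held which strand was judged from the values.

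**Figure D2:**
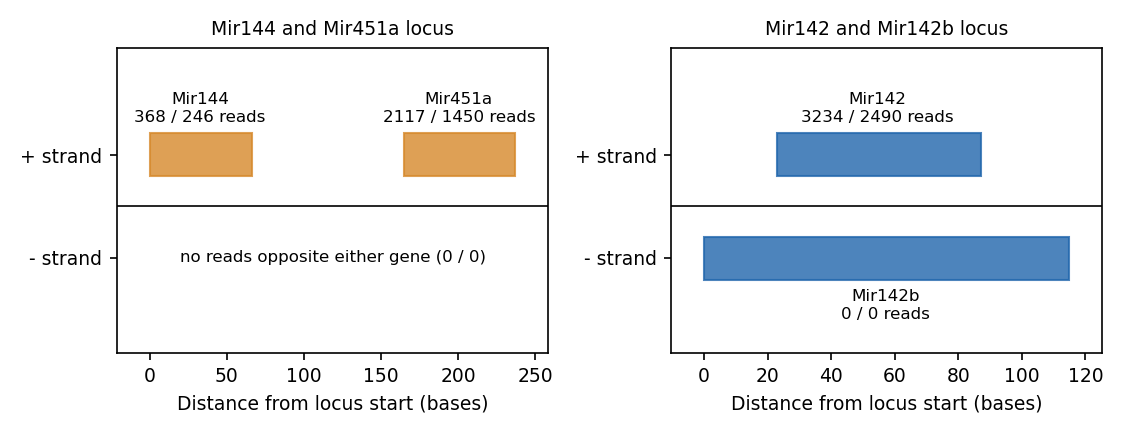
Maps of the Mir144 and Mir451a locus (left) and the Mir142 and Mir142b locus (right), with distance from the locus start in bases on the horizontal axis and the strand on the vertical axis; boxes are annotated precursors, drawn to scale, with reads in replicate 1 / replicate 2. The 3234 and 2490 reads over Mir142b all lay on the plus strand and are written at Mir142, and no reads lay opposite Mir144 or Mir451a.

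Mir223, the microRNA of granulocytes and other myeloid cells, was alike in both libraries. It held 1596 and 1500 reads, or 346 and 362 CPM, with a mean of 354 ± 11.1 CPM. The gene (ENSMUSG00000076066.1) lies at chrX:96242817-96242926 on the plus strand, over an exon of the noncoding gene F630028O10Rik. Mir155, made from the transcript Mir155hg in activated immune cells, held 1109 and 1172 reads. Its levels were 241 and 283 CPM, with a mean of 262 ± 29.8 CPM, and replicate 2 was the higher one. Mir155 (ENSMUSG00000065397.1) lies at chr16:84714140-84714204 on the plus strand, over an exon of its host.

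Mir150, the microRNA of mature lymphocytes, was near the bottom of the range. It held 53 and 44 reads, or 11.5 and 10.6 CPM, and gave 0.865% of the white cell sum. The gene (ENSMUSG00000065495.1) lies at chr7:45121757-45121821 on the plus strand, within no annotated host transcript. Mir223 exceeded it by 30.1 times in replicate 1 (22.9 to 40.4) and by 34.1 times in replicate 2 (25.3 to 47.1).

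In order of mean level the members ran Mir126a, Mir142, Mir451a, Mir223, Mir155, Mir144, Mir150 and Mir486. The span was 2391-fold in singly aligned reads. The one neighbouring pair whose libraries overlapped was Mir451a and Mir223: Mir451a was 1.33 times Mir223 in replicate 1 (1.24 to 1.42) and 0.967 times in replicate 2 (0.899 to 1.04). Mir150 exceeded Mir486 by 1.43 times (0.924 to 2.24) and 1.33 times (0.830 to 2.16), an order that counting error does not resolve in either library. In each of the other 5 neighbouring pairs, both libraries of the higher gene lay above both of the lower gene.

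**Figure D3:**
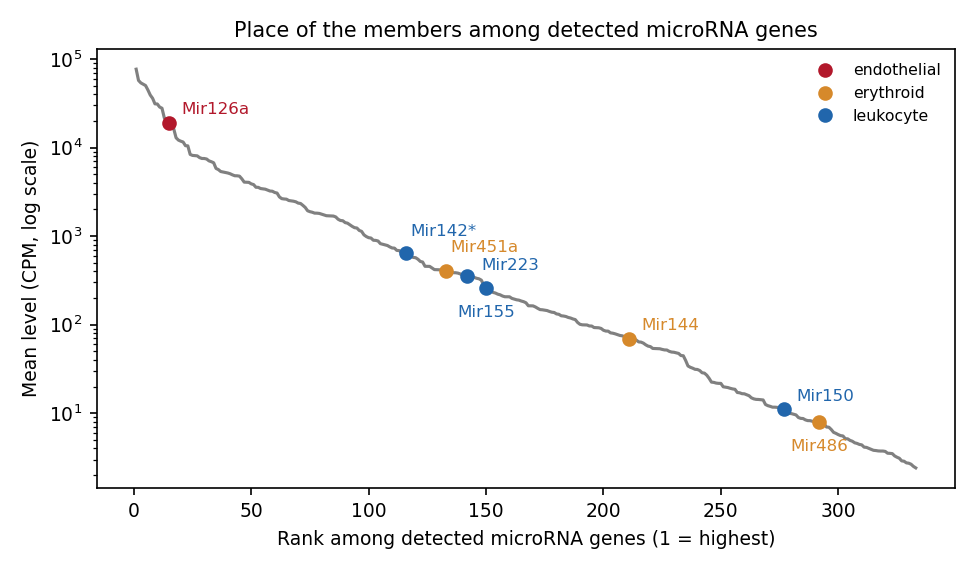
Mean level (vertical axis, CPM on a log scale) of the 333 detected microRNA genes by rank (horizontal axis, 1 = highest), as a grey line, with the members as coloured points. Mir126a stands at rank 15, Mir451a, Mir223 and Mir155 at ranks 133, 142 and 150, and Mir486 at rank 292; Mir142 is placed at the rank its level would take, 116.

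Between the cell types, the endothelial level exceeded both blood sums in both libraries. It was 34.7 times the red cell sum in replicate 1 (33.3 to 36.1) and 46.2 times in replicate 2 (44.0 to 48.5). Against the white cell sum it was 14.6 times (14.2 to 15.0) and 15.3 times (14.9 to 15.8). The red cell sum was 0.421 times the white cell sum in replicate 1 and 0.332 times in replicate 2, below 1 in both. Ratios that use the red cell sum hold for singly aligned reads only, because its Mir486 counts are a lower limit. The white cell sum includes Mir142, which is not specific to white cells. Without these opposite-strand reads at Mir142b, the endothelial level was 30.5 ± 1.62 times the white cell sum. The red cell sum was then 0.914 and 0.637 times the white cell sum.

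The members differed in how far the libraries lay apart. In replicate 2 Mir451a was 1.31-fold lower, and the log2 ratio of replicate 2 to replicate 1 was -0.39 (-0.49 to -0.30). Mir144 was 0.743 times as high in replicate 2, a log2 ratio of -0.43 (-0.67 to -0.19). These 2 of the 8 members were lower in replicate 2 by at least 20%, as were 11.3% of the 407 microRNA genes with at least 10 reads in total. None of the 8 was higher by at least 25%, the same fold upwards, against 16.0% of the 407 genes. Genes with few reads fill these shares, and among the 275 genes with at least 100 reads, as Mir451a and Mir144 had, 6.18% were lower by that much. The median log2 ratio was -0.06 over the 8 members and 0.04 over the 407 genes.

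Mir142 had a log2 ratio of -0.22 (-0.30 to -0.15), and Mir155 one of 0.23 (0.11 to 0.35). Mir223 had a log2 ratio of 0.06 (-0.04 to 0.17), Mir150 of -0.11 (-0.73 to 0.49) and Mir486 of -0.01 (-0.73 to 0.71), so that the interval of each held 0. White cell members thus lay on both sides of 0, and Mir142 was 2.03 times Mir223 in replicate 1 (1.91 to 2.15) but 1.66 times in replicate 2 (1.56 to 1.77). Mir126a had a log2 ratio of 0.02 (0.01 to 0.04), whose sign turned under each of the 3 other scalings of own-strand counts. With counts on either strand, Mir126a stayed higher in replicate 2. Its coefficient of variation of 1.13% compares with 19.1% for Mir451a and 20.8% for Mir144, where counting error alone would give 0.346%, 2.41% and 5.82%.

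Markers of other limb tissues also differed between the libraries. Mir206 of skeletal muscle was 0.730 times as high in replicate 2 as in replicate 1 (0.717 to 0.744), and Mir203 of the epidermis 0.781 times (0.776 to 0.787), while Mir205, also of the epidermis, was 0.911 times as high (0.900 to 0.922), against 0.762 times (0.717 to 0.811) for the red cell sum. Mir140 was 1.06 times as high in replicate 2. What part these tissues had in the red cell difference was not tested.

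**Figure D4:**
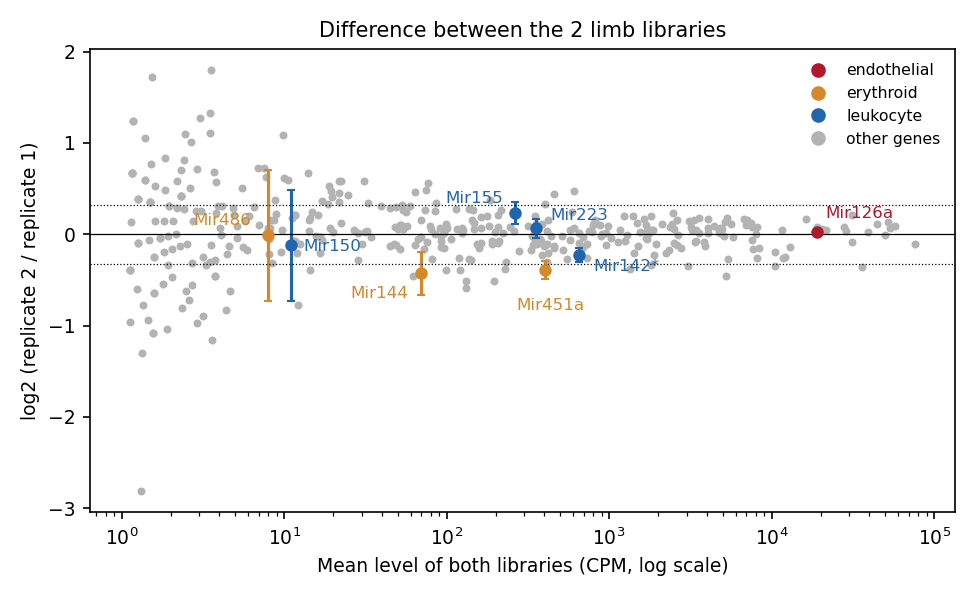
Log2 ratio of replicate 2 to replicate 1 (vertical axis) against the mean level (horizontal axis, CPM on a log scale) for the 407 microRNA genes with at least 10 reads in total (grey) and the members (coloured, with exact binomial intervals at 95%); Mir142* marks reads on the strand opposite Mir142b, and dotted lines mark 20% lower and 25% higher. Mir451a and Mir144 lie below the lower dotted line at -0.39 and -0.43, and Mir126a lies near 0.

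Other microRNAs linked to vessels and blood gave a wider frame, from a list of 24 genes. Of these, 19 were in the tables and 15 were detected, against 333 of all 1973 genes. A mean of 100 CPM was reached by 9 of them. Many of the listed genes are made by other tissues too, so that their levels do not measure vessels or blood. On the vessel side, 9 of 9 genes in the tables were detected, and Mir296, described in angiogenesis, reached 4037 and 4074 CPM. Mir92-1, the miR-92a gene of the Mir17 cluster, reached 1679 and 1927 CPM, a lower limit because it shares a stretch of 22 bases with Mir92-2. Mir210, a target of the hypoxia response, reached 767 and 825 CPM. Mir221 (216 and 205 CPM), Mir132 (176 and 187 CPM) and Mir222 (114 and 118 CPM) followed. All 6 were below Mir126a in both libraries.

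Of the further red cell genes on the list, Mir425 was in the tables, at 1759 and 1775 CPM. Of the further white cell genes 5 of 9 were detected. Mir21a, a broadly expressed microRNA induced in immune cells, reached 7682 and 7358 CPM, and Mir342, within an intron of Evl, 3128 and 3488 CPM. Of the 16 genes with at least 10 reads in total, 0 were lower in replicate 2 by at least 20%, against 11.3% of the 407 genes, and 3 were higher by at least 25%, against 16.0%. These 3 were Mir212, Mir218-1 and Mir147, all below 100 CPM. Mir425, the further red cell gene that was counted, was 1.01 times as high in replicate 2 as in replicate 1 (0.978 to 1.04). Mir451a was 0.762 times as high (0.712 to 0.815). The level of Mir425 also exceeded the red cell sum of 547 CPM in replicate 1 and 417 CPM in replicate 2. How much of Mir425 came from red cells was not measured.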

How the data were processed

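Small RNA libraries of 2 limb samples were analysed. The authors deposited raw read counts for each microRNA gene, not normalized. Alignment was to mm10 and counting on GENCODE M4, per the deposited read-me texts; the aligner and counter are not given in the sources used here. Tally rows (48.8% and 50.6% of reads, with 31.8% and 32.6% of reads in several alignments) were kept out of totals. Own-strand counts were scaled to their sum. A count of 3, the limit that 0 counts allow, equals 0.651 and 0.724 CPM.

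Names and positions came from GENCODE M21 of the same build, in which 1894 of 1973 identifiers matched (Mir92a-1 of the list is named Mir92-1 there, a RefSeq synonym). Log2 ratios carried a prior count of 0.5, with exact binomial (Clopper-Pearson) intervals; levels had exact Poisson intervals. Folds were predicted with RNAfold 2.7.2. Alternatives used edgeR 4.0.16 (TMM) and DESeq2 1.42.0 (size factors) in R 4.3.3. Python 3.11.15 and scipy 1.17.1 were used. The intervals were tested on simulated counts that held counting error only, so that test does not cover the spread between samples. No quasi-likelihood fit was made, since the design holds no contrast between groups.

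Named genes were the 8 members and those of 24 other listed genes at a mean of at least 100 CPM. Members and lists were chosen with earlier results of these data known.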

Additional observations from a re-analysis of the deposited data

Results flagged for a closer look

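Reads on the strand opposite a member, outside the measurement used for it, exceeded the 3 counts that a count of 0 allows at Mir126a and Mir486. At Mir126a, where Mir126b is annotated on the other strand over 58 bases, 17 reads lay opposite in replicate 1 and 8 in replicate 2, which is 0.0194% (0.0113 to 0.0311) and 0.0100% (0.00432 to 0.0197) of the reads there. At Mir486 the opposite strand held 14 reads in replicate 1 against 37 on its own strand, and 1 against 33 in replicate 2. This share was 27.5% (15.9 to 41.7) in replicate 1 and 2.94% (0.0744 to 15.3) in replicate 2, with intervals by the Clopper-Pearson method.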

How the results depend on the processing

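With TMM or DESeq2 scaling, the 3 levels or sums moved by less than 1 SD. The 3 ratios between them cannot change, because a scaling factor cancels in a ratio within a library. Mir451a and Mir144 were again the 2 members lower in replicate 2 by at least 20%. With multiply aligned reads counted in the total, the endothelial level was 11650 CPM, the red cell sum 294 CPM and the white cell sum 779 CPM, since all CPM shrink with a larger total. Counted on either strand, the endothelial level was 18518 CPM (18349 in replicate 1 and 18686 in replicate 2) and the white cell sum 1238 CPM. Without Mir142b the white cell sum was 627 CPM, the endothelial to white cell ratio 30.5 and the red to white cell ratio 0.776. The log2 ratio of Mir126a was -0.0183 with TMM, -0.0197 with DESeq2 size factors and -0.0108 with the larger total. Genes lower by at least 20% or higher by at least 25% numbered 111, or 38 with at least 100 reads required and 347 with at least 1 read, as fewer or more genes were tested. Leaving out a replicate gave 34.7 to 46.2 for the endothelial to red cell ratio. No paired analysis was possible because there was 1 group. An n of 2 limits every SD, and at Mir150 and Mir486 counting error exceeds the difference between them.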
